A study of Homo sapiens with 17 samples.

Results

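The regions described here were bound by BRG1 in T3-treated human thyroid cells, overlapped a region of the PBRM1 subunit by at least 1 bp, and overlapped no region of the ARID1A subunit and none of thyroid hormone receptor β (TRβ). They numbered 5913 of 55931 BRG1 regions with T3 on chromosomes 1 to 22 and X, a share of 10.6% (exact 95% binomial interval 10.3% to 10.8%). They are called PBRM1-only regions below. They were chosen by the 4 lists measured with T3, so their number, width and signal are given as a description, and tests were kept to the vehicle lists and to gene positions, which the choice did not use. The vehicle lists of PBRM1 and ARID1A are not independent of the T3 lists of the same antibodies, so the choice bears on those tests too.

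The cells were Nthy-ORI, an immortalised line labelled as normal thyroid epithelium. They were starved of hormone for 24 h in charcoal-stripped serum and then received 10 nM T3, the active thyroid hormone, or the vehicle NaOH; the sample labels give 6 h of treatment, while the protocol text also names 24 h. Nuclei from 500000 cells per reaction were profiled by CUT&RUN, in which an antibody directs a nuclease to cut out the DNA around a bound protein, with separate antibodies against BRG1, PBRM1, ARID1A and TRβ. There were 2 libraries for each of the 8 combinations of antibody and treatment, T3 and vehicle, and 1 IgG library that was not analysed here. All groups shared the same cell line and the same starvation.

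BRG1, encoded by SMARCA4, is an ATPase of the SWI/SNF complexes, which move and eject nucleosomes. ARID1A is a subunit of the BAF form of the complex and PBRM1, with its row of bromodomains that bind acetylated histones, of the PBAF form, together with ARID2, BRD7 and PHF10. BAF is best known from enhancers and PBAF from promoters and gene bodies. TRβ is a nuclear receptor that binds DNA with or without hormone.

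The deposited lists held the regions found in both libraries of a group by the irreproducible discovery rate (IDR), which measures how well 2 replicates rank the same region. With T3 they held 38132 PBRM1, 41690 ARID1A and 7186 TRβ regions, and with vehicle 9115 PBRM1, 48976 ARID1A, 1405 TRβ and 64289 BRG1 regions. The PBRM1 list was thus much the longer with T3, and what list length contributes to the shares below was not tested beyond lists cut to equal length. Read depth is unknown. Of the genes that mark thyroid cells, PAX8 had 15 BRG1 regions with T3 within 25 kb of its ends and FOXE1 had 9, while NKX2-1 had 0.

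Promoters are shown first, because CpG content and motifs were counted in such windows of PBRM1-only regions and of BRG1 regions with ARID1A and no PBRM1 (ARID1A-only regions). Each is the RefSeq window (GRCh38.p14) from 250 bases before to 50 bases after a gene start and lay wholly inside 1 BRG1 region. They belong to the named genes with the highest BRG1 value in each class. Capitals mark CpG dinucleotides, and each sequence runs 5′ to 3′ on the strand of its gene.

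The first 4 lay in PBRM1-only regions. JMJD1C encodes a protein of the JmjC histone demethylase family, H2AC13 a histone H2A, TXNRD2 the mitochondrial thioredoxin reductase and SMAD7 an inhibitory SMAD of TGF-β signalling.
JMJD1C, chr10:63269194-63269493, minus strand: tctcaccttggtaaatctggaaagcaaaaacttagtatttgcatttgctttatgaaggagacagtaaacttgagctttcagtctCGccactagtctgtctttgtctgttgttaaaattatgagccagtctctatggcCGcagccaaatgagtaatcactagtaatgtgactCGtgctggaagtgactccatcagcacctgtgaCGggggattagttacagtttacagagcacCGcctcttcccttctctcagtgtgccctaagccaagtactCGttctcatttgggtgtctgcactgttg
H2AC13, chr6:27807923-27808222, plus strand: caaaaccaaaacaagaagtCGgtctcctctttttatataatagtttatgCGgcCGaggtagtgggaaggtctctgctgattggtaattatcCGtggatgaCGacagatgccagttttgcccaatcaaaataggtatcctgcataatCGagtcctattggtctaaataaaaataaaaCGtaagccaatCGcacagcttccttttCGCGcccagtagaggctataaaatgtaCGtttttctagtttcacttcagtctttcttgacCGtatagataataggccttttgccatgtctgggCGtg
TXNRD2, chr22:19941769-19942068, minus strand: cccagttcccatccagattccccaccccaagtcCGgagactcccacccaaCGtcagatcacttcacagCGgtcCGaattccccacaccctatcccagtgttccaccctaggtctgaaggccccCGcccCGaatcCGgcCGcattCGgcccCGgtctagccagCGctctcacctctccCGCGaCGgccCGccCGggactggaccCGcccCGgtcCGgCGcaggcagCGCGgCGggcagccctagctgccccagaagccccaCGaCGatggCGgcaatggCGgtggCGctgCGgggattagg
SMAD7, chr18:48949284-48949583, minus strand: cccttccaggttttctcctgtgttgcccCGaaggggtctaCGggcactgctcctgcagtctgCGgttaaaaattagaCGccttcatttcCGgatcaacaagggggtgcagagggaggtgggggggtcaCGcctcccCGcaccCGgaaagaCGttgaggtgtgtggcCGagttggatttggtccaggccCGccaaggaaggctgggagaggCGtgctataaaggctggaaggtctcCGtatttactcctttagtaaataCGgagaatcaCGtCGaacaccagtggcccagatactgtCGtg

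The other 3 lay in BRG1 regions with ARID1A and no PBRM1. KRTAP2-3 encodes a hair keratin-associated protein, PHACTR4 a regulator of protein phosphatase 1 and actin, and KCNMA1 a calcium-activated potassium channel.
KRTAP2-3, chr17:41060065-41060364, minus strand: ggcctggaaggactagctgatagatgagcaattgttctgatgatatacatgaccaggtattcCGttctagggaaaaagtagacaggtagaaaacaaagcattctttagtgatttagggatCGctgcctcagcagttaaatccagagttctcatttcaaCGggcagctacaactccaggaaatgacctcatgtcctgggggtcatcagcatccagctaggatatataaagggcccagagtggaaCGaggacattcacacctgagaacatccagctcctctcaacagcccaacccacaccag
PHACTR4, chr1:28437900-28438199, plus strand: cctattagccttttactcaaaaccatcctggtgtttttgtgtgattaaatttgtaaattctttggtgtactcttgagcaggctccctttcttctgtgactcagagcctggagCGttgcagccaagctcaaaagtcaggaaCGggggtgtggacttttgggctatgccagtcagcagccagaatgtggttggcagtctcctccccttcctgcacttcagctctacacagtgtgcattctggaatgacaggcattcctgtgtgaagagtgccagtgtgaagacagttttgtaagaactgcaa
KCNMA1, chr10:77350712-77351011, minus strand: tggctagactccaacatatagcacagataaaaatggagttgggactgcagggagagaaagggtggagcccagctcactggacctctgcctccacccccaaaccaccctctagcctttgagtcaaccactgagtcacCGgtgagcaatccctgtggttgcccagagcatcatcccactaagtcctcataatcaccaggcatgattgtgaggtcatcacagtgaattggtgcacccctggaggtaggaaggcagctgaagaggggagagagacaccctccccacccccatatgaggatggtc

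The PBRM1-only windows held 6 CpG at JMJD1C, 13 at H2AC13, 29 at TXNRD2 and 17 at SMAD7, against 4 at KRTAP2-3, 2 at PHACTR4 and 1 at KCNMA1. Across all windows that lay wholly inside a region, the median was 27 CpG in 1053 windows of PBRM1-only regions, 22 in 616 windows of ARID1A-only regions, 28 in 5752 windows of regions with both subunits, 13 in 473 windows with neither, and 14 in all 34789 windows of the table. Median GC content was 65.7% in PBRM1-only windows, 61.3% with ARID1A only, 67.3% with both, 54.3% with neither and 58.7% in all windows. These windows share genes and regions, so the values are a description with no test.

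Short motifs were searched on both strands of the same windows. The AP-1 letters TGANTCA occurred in 5.32% of PBRM1-only windows, 12.8% of ARID1A-only windows, 5.79% of windows with both subunits, 13.95% with neither and 7.69% of all promoters; both PHACTR4 and KCNMA1 above held them and none of the 4 PBRM1-only windows did. The cyclic AMP response letters TGACGTCA occurred in 1.42% of PBRM1-only windows, 5.36% of ARID1A-only windows, 3.15% with both, 2.75% with neither and 1.84% of all promoters. The GC box GGGCGG, letters that SP1-family factors bind, occurred in 67.7% of PBRM1-only windows, 55.8% with ARID1A only, 74.4% with both, 40.6% with neither and 44.9% of all promoters. CCAAT letters were found in 26.4% of PBRM1-only windows, against 42.2%, 33.6%, 37.2% and 34.6% for ARID1A only, both, neither and all promoters. The ETS letters CCGGAAG were about equally common in PBRM1-only, ARID1A-only and both-subunit windows (20.1%, 20.5% and 18.1%) and less common with neither (14.6%) and in all promoters (10.2%). The nuclear receptor half-site AGGTCA occurred in 8.83% of PBRM1-only windows, 12.7% with ARID1A only, 9.04% with both, 15.4% with neither and 13.8% of all promoters. The AP-1 and cyclic AMP response letters and the reverse strand of the half-site all begin with TGA, so matches may overlap. A match says only that the letters are present.

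PBRM1-only regions were of middling width and signal. Their median width was 785 bp (quartiles 550 to 1156 bp, range 100 to 8735 bp), against 989 bp with ARID1A only, 1394 bp with both and 620 bp with neither. The authors' signal value, the sum of a region's values in its 2 libraries, had a median of 10.9 in PBRM1-only regions (range 6.90 to 65.6), 13.3 with ARID1A only, 16.2 with both and 9.42 with neither. An IDR of at most 0.01 was met by 68.8% of PBRM1-only regions, 80.8% with ARID1A only, 88.3% with both and 52.3% with neither. Within PBRM1-only regions the values of the 2 libraries were loosely related across regions (Spearman's rho 0.27), and the library in the first columns had the higher value in 67.2% of them.

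The extent of overlap between BRG1 and PBRM1 varied widely. The median overlap was 516 bp, which covered a median of 73.2% of the BRG1 region; 4173 regions (70.6%) were covered by at least 50%, and 247 (4.18%) overlapped by under 100 bp. The midpoints of the BRG1 region and its PBRM1 region lay a median of 254 bp apart. Most regions (5488, or 92.8%) met 1 PBRM1 region, and 425 met more than 1. Several of the strongest BRG1 regions were covered in small part: PBRM1 covered 11.2% of the UACA region, 20.96% of USP10, 8.77% of RFFL and 4.20% of DAAM2. Of the 50 regions chosen for naming, 21 were covered by at least 50%, and 9 met a reciprocal overlap of 50%. The PBRM1 region was the wider of the pair in 53.9%.

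ARID1A regions lay at all distances. The nearest ARID1A region with T3 lay a median of 3406 bp away; 1833 regions (31.0%) had one within 1 kb, against 21.3% of regions with neither subunit, and 2024 (34.2%) had none within 10 kb, against 42.6%. In 869 regions (14.7%) the overlapping PBRM1 region itself touched an ARID1A region, where 53.3% of all PBRM1 regions with T3 did; the choice of regions without ARID1A bears on this share. BRG1 regions also stood close together: the gap to the nearest other BRG1 region had a median of 350 bp, and 76.0% of PBRM1-only regions had one within 5 kb, against 66.0% with ARID1A only, 68.5% with both and 71.5% with neither. That neighbour was itself PBRM1-only in 25.2%, where 10.6% of all BRG1 regions were. Each other class also neighboured itself above its share: 22.2% with ARID1A only (share 14.5%), 30.4% with both (21.4%) and 52.1% with neither (45.05%).

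Few regions lay at the limits of the choice. Just inside were chr2:9308009-9309563 and chr2:218218449-218218947, each overlapping PBRM1 by 1 bp, and chr13:20424433-20424911, which abutted an ARID1A region with a gap of 0 bp. Just outside were chr6:36962711-36963416, which overlapped ARID1A by 1 bp, and chr3:4826931-4827168, which abutted a PBRM1 region. In all, 114 regions (1.93%) overlapped PBRM1 by under 50 bp and 113 (1.91%) lay under 50 bp from ARID1A. Of BRG1 regions with PBRM1 and no ARID1A, 265 (4.29%) were left out because they overlapped TRβ.

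Of the 12 regions with the highest BRG1 value, 9 lay inside a protein-coding gene. The highest was chr15:70698212-70703902 inside UACA, which encodes a coiled-coil and ankyrin-repeat autoantigen, with values of 42.2 and 23.4 in the 2 BRG1 libraries and 6.27 and 4.50 in the 2 PBRM1 libraries. The widest, 8735 bp at chr16:84724999-84733733 in the deubiquitinase gene USP10, had 38.7 and 26.6 for BRG1 and 6.41 and 5.45 for PBRM1. JMJD1C had 41.6 and 17.8 for BRG1 and 10.2 and 3.94 for PBRM1 at chr10:63265663-63270101. Their PBRM1 sums of 10.8, 11.9 and 14.1 stood near 12.9, the median over the PBRM1 regions that PBRM1-only regions overlapped.

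A region at chr8:127793449-127797138, about 52 kb from the MYC oncogene, had 35.2 and 16.6 for BRG1 and 12.9 and 7.97 for PBRM1. PAX8, the transcription factor that specifies thyroid follicular cells, carried chr2:113272487-113276557 inside the gene, with 26.5 and 25.1 for BRG1 and 11.9 and 3.93 for PBRM1. The midpoint of this region lay 4399 bp from the nearer edge of the gene, be it start or finish. The ARID1A region nearest to the PAX8 region was 948 bp away and the nearest TRβ region 1642 bp away. CRIM1, which encodes a BMP-binding membrane protein, had 28.7 and 19.6 for BRG1 and 10.5 and 10.0 for PBRM1 at chr2:36359676-36364608. All 12 overlapped a BRG1 region with vehicle, and 5 of them overlapped a PBRM1 region with vehicle.

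**Figure D1:**
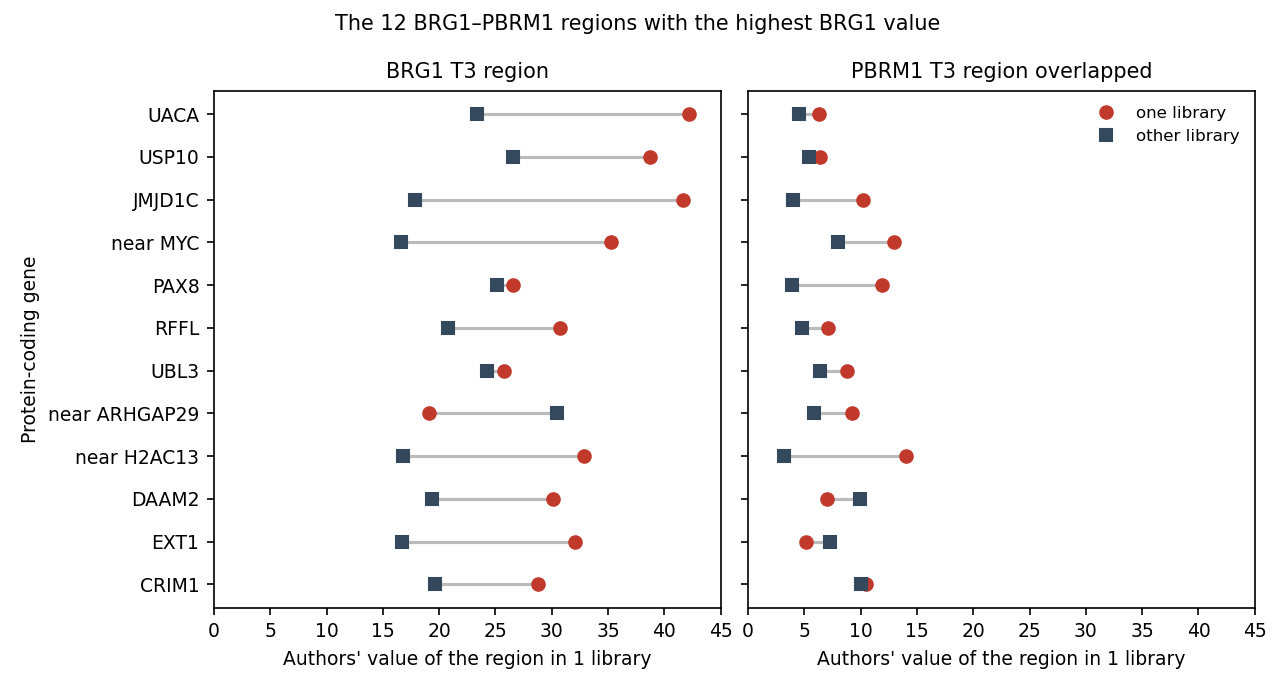
Values of the 12 PBRM1-only regions with the highest BRG1 value, from the highest at the top: the authors' value in each of 2 libraries (circle and square, unitless) for the BRG1 region on the left and the overlapped PBRM1 region on the right. The 2 BRG1 libraries of the UACA region stood at 42.2 and 23.4, and its 2 PBRM1 libraries at 6.27 and 4.50; only the region near ARHGAP29 had the higher BRG1 value in the other library.

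Ranked by PBRM1 instead, other regions led. A PBRM1 region of 6365 bp in PSD2, with PBRM1 values of 29.7 and 49.5, overlapped a BRG1 region of 409 bp at chr5:139748843-139749251 with BRG1 values of 4.31 and 3.84, and a second of 776 bp. In UGCG, the glucosylceramide synthase gene, 1 PBRM1 region with values of 44.5 and 26.2 spanned 3 PBRM1-only regions. ACTG1, which encodes cytoplasmic γ-actin, had 18.4 and 38.9 for PBRM1 and 3.80 and 4.98 for BRG1. In NDST1, an enzyme of heparan sulfate synthesis, BRG1 and PBRM1 shared 3 bp.

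The vehicle lists were overlapped to unequal degrees, and they differ in length. Of the 5913, 4841 (81.9%) overlapped a BRG1 region with vehicle, where 76.7% of all BRG1 regions with T3 did. ARID1A with vehicle was met by 1952 (33.0%; 40.5% of all BRG1 regions), PBRM1 with vehicle by 1240 (20.97%; 14.3% of all) and TRβ with vehicle by 34 (0.575%; 1.41% of all). The PBRM1 share was close to that of the PBRM1 T3 list as a whole, of which 7944 of 38132 regions (20.8%) overlapped the PBRM1 vehicle list. With the BRG1 and ARID1A vehicle lists cut to their strongest regions, as many as the PBRM1 list holds, PBRM1-only regions met BRG1 in 17.03% and ARID1A in 6.21%, beside the same 20.97% for PBRM1, so the order of these shares turned with list length.

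The state with vehicle differed from each other class of BRG1 regions away from TRβ. The classes were set by PBRM1 and ARID1A with T3, and the T3 and vehicle lists of the same antibody share regions. The choice of classes therefore bears on the direction of the PBRM1 and ARID1A comparisons, which are no independent support. PBRM1 with vehicle was met by 20.97% of PBRM1-only regions and 6.34% of ARID1A-only regions (log2 odds ratio 1.97 ± 0.08, where ± is the SE throughout; adjusted p = 1.13e-146 in a two-sided Fisher's exact test over regions, with Benjamini-Hochberg adjustment over 15 tests). It was higher on 23 of 23 chromosomes. Regions with both subunits met it in 32.3% (log2 odds ratio -0.85 ± 0.05, adjusted p = 3.63e-58 by the same exact test) and regions with neither in 2.78% (3.21 ± 0.07, adjusted p = 5e-300, the smallest written). A region is no replicate, and close neighbours share their DNA, so each p-value is about the lists alone and not about how cultures vary.

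ARID1A with vehicle was met by 33.0% of PBRM1-only regions and 52.6% of ARID1A-only regions (log2 odds ratio -1.17 ± 0.05, adjusted p = 1.60e-118, Fisher's exact test), 75.6% with both (-2.65 ± 0.05, adjusted p = 5e-300) and 12.8% with neither (1.75 ± 0.05, adjusted p = 2.26e-269). BRG1 with vehicle was met by 81.9% of PBRM1-only regions, against 89.9% with ARID1A only (log2 odds ratio -0.97 ± 0.07, adjusted p = 5.76e-42, Fisher's exact test), 96.0% with both (-2.42 ± 0.08, adjusted p = 3.92e-204) and 58.3% with neither (1.69 ± 0.05, adjusted p = 2.17e-271). The first of these turned to 0.20 (adjusted p = 0.00299, exact test) when lying under 1 kb from ARID1A or TRβ counted as overlap. That setting redrew every class and moved regions near ARID1A into the ARID1A-only class. The share of ARID1A-only regions went from 89.9% to 79.6%, and that of PBRM1-only regions from 81.9% to 81.7%. TRβ with vehicle was rare everywhere: 0.575% of PBRM1-only regions, against 0.332% with ARID1A only (0.79 ± 0.37, adjusted p = 0.0370, exact test), 2.09% with both (-1.86 ± 0.26, adjusted p = 2.85e-16) and 0.0754% with neither (2.92 ± 0.41, adjusted p = 7.64e-13). The first TRβ comparison rests on 34 and 27 regions and turned to -0.43 (adjusted p = 0.258, exact test) under a reciprocal 50% overlap.

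**Figure D2:**
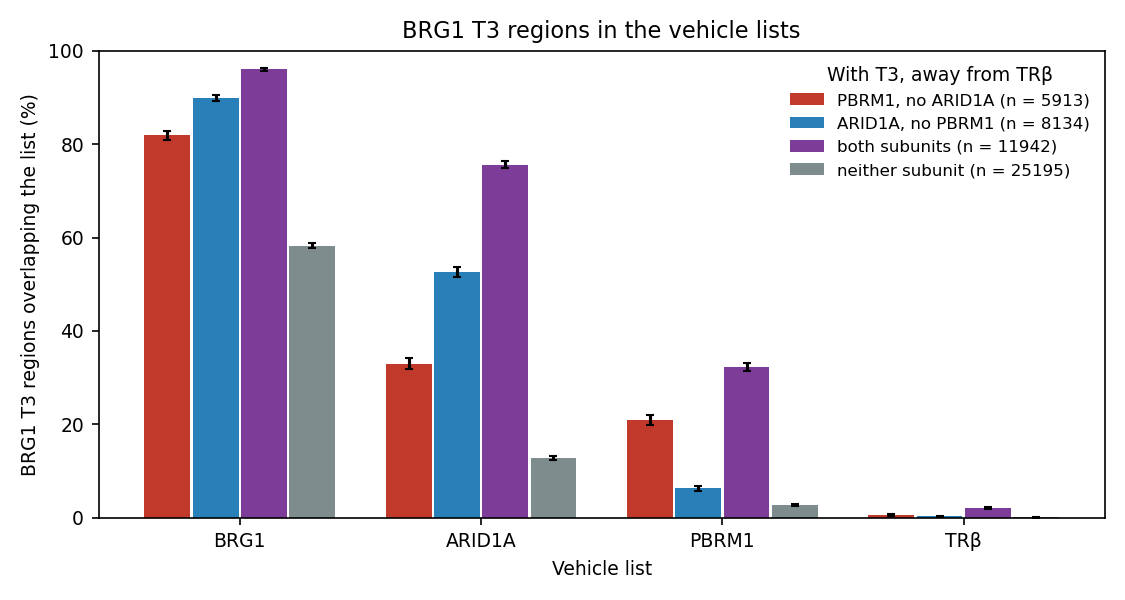
Share of BRG1 regions with T3 (percent, bars with exact 95% intervals) that overlapped each vehicle list, for PBRM1-only regions and 3 other classes away from TRβ. PBRM1-only regions stood at 81.9% for BRG1, 33.0% for ARID1A, 20.97% for PBRM1 and 0.575% for TRβ, in each list between the regions with both subunits and those with neither.

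Read jointly, the vehicle lists placed 2409 PBRM1-only regions (40.7%; 34.9% of all BRG1 regions) at BRG1 without either subunit and 1321 (22.3%; 28.3% of all) at BRG1 with ARID1A but not PBRM1. BRG1 with PBRM1 but not ARID1A was met by 670 (11.3%; 3.65% of all), and all 3 by 441 (7.46%; 9.86% of all). A further 773 (13.1%; 20.3% of all) met none of the 3 lists. These states rest on the full lists of unequal length. Under them 81.9% met BRG1 and 33.0% met ARID1A with vehicle, against 17.03% and 6.21% at equal length. In the state with none of the 3 the highest BRG1 value inside a gene was at EDN1, which encodes the peptide endothelin-1, with 14.3 and 14.2 in the 2 libraries at chr6:12289217-12291270 inside the gene. The PBRM1-only region chr1:13583644-13584643 in PDPN, the gene of the membrane glycoprotein podoplanin, met ARID1A alone with vehicle and had 11.5 and 4.93 for BRG1 with T3. Seen from the vehicle side, 2623 BRG1 regions had PBRM1 and no ARID1A and lay away from TRβ; 611 of these (23.3%) overlapped a PBRM1-only region with T3, 898 (34.2%) a region with both subunits, and 574 (21.9%) no BRG1 region with T3.

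PBRM1-only regions lay at genes more often than ARID1A-only regions did. Within 1 kb of an annotated gene end were 1897 (32.1%; 25.1% of all BRG1 regions), against 15.1% with ARID1A only (log2 odds ratio 1.41 ± 0.06, adjusted p = 2.88e-125, Fisher's exact test, higher on 23 of 23 chromosomes), 46.7% with both (-0.89 ± 0.05, adjusted p = 2.32e-78) and 9.47% with neither (2.17 ± 0.05, adjusted p = 5e-300). Of the PBRM1-only regions within 1 kb of a gene end whose strand could be read, 1172 of 1251 (93.7%) were at the start of the gene and not its finish, against 76.2% with ARID1A only, 95.5% with both and 66.0% with neither. Inside a protein-coding gene lay 72.1% of PBRM1-only regions, 52.8% with ARID1A only, 67.6% with both and 59.9% with neither. Exons and introns were not told apart.

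Around gene starts the PBRM1-only regions leaned into the gene. On 22 chromosomes with listed starts, 43.7% of them had their midpoint within 5 kb of a start of a gene, 16.0% with ARID1A only, 47.5% with both and 18.4% with neither. Within 500 bp of a start lay 19.1% of PBRM1-only regions, 6.00% with ARID1A only, 30.3% with both and 2.48% with neither. Of those between 500 and 5000 bp, 985 PBRM1-only regions were downstream and 404 upstream, a downstream share of 70.9% (exact 95% interval 68.4% to 73.3%), against 50.4% with ARID1A only, 66.8% with both and 58.2% with neither. These shares were looked at after the values were seen and carry no test.

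**Figure D3:**
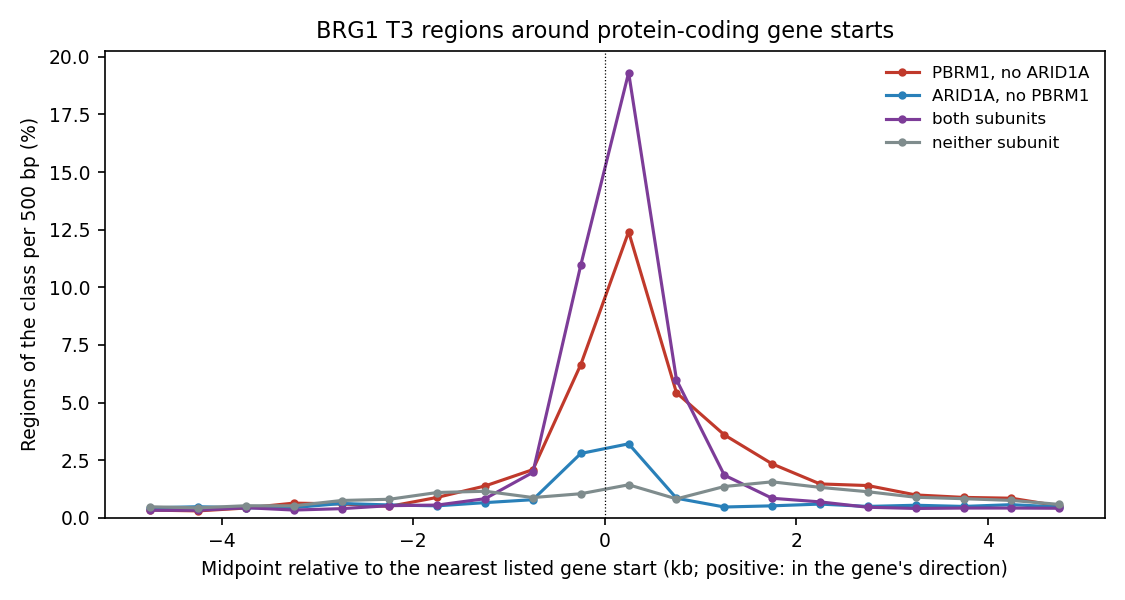
Midpoints of BRG1 regions with T3 around the nearest listed gene start (horizontal axis in kb, positive in the direction of the gene; vertical axis in percent of the class per 500 bp), for PBRM1-only regions and 3 other classes. PBRM1-only regions peaked at the start and extended downstream, where 985 lay between 500 and 5000 bp, against 404 upstream.

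The difference held within groups of similar width. Among regions under 500 bp, 31.2% of PBRM1-only and 17.6% of ARID1A-only regions had a gene end within 1 kb, and among those of 1500 bp or more the shares were 30.0% and 10.9%. The share with PBRM1 in vehicle was larger in wider PBRM1-only regions, 16.7% under 500 bp and 30.4% at 1500 bp or more, and stood at 5.12% and 8.90% in ARID1A-only regions of the same widths. Distance to ARID1A moved with it: of PBRM1-only regions over 10 kb from any ARID1A region, 51.8% were within 1 kb of a gene end, against 23.8% of those under 1 kb from one and 20.04% of those between; the part of this distance in the difference was not tested.

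**Figure D4:**
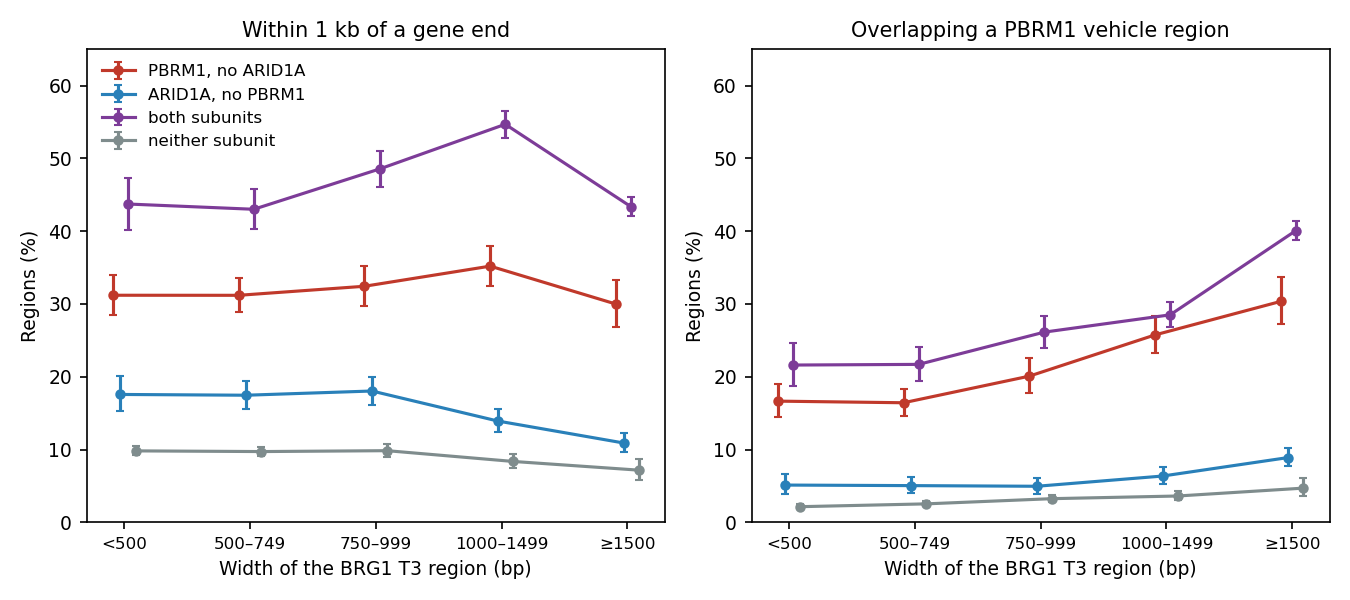
Share of BRG1 regions with T3 (percent, points with exact 95% intervals) within 1 kb of a gene end (left) and overlapping a PBRM1 vehicle region (right), by width of the BRG1 region in bp. In each width group PBRM1-only regions lay above ARID1A-only regions on both panels, for example 31.2% and 17.6% at gene ends under 500 bp.

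Vehicle state and gene position went together. Gene ends within 1 kb were found for 40.6% of PBRM1-only regions that met ARID1A with vehicle and 27.9% of those that did not, for 38.7% and 30.3% by PBRM1 with vehicle, and for 34.6% and 20.6% by BRG1 with vehicle. Regions that met all 3 stood at 50.3% and those that met none at 18.6%.

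Some genes carried many PBRM1-only regions. Inside or within 25 kb of TRIO, which encodes a guanine nucleotide exchange factor, 38 of 68 BRG1 regions were PBRM1-only, on 36 separate PBRM1 regions; their BRG1 values ran from 7.11 to 36.8 with a median of 11.4, and 30 met BRG1, 11 PBRM1 and 5 ARID1A with vehicle. TEAD1, a DNA-binding partner of YAP, had 20 of 40, and GLI2, a transcription factor of Hedgehog signalling, 18 of 34. CRIM1 had 16 of 42, ASAP1, an Arf GTPase-activating protein of focal adhesions, 14 of 53, and EXT1, a heparan sulfate polymerase, 13 of 53. The cell polarity gene PARD3 had 13 of 49, the growth factor receptor EGFR 11 of 28, GSE1 11 of 42 and KIRREL1, of the nephrin-like adhesion family, 11 of 21. These 10 genes were picked for their number of PBRM1-only regions, which made up 10.6% of all BRG1 regions. The genes were long, from 107 kb for KIRREL1 to 706 kb for PARD3. What length contributes to the counts was not tested. All 10 genes also held BRG1 regions of other classes, and regions in 1 gene are neighbours, not replicates.

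**Figure D5:**
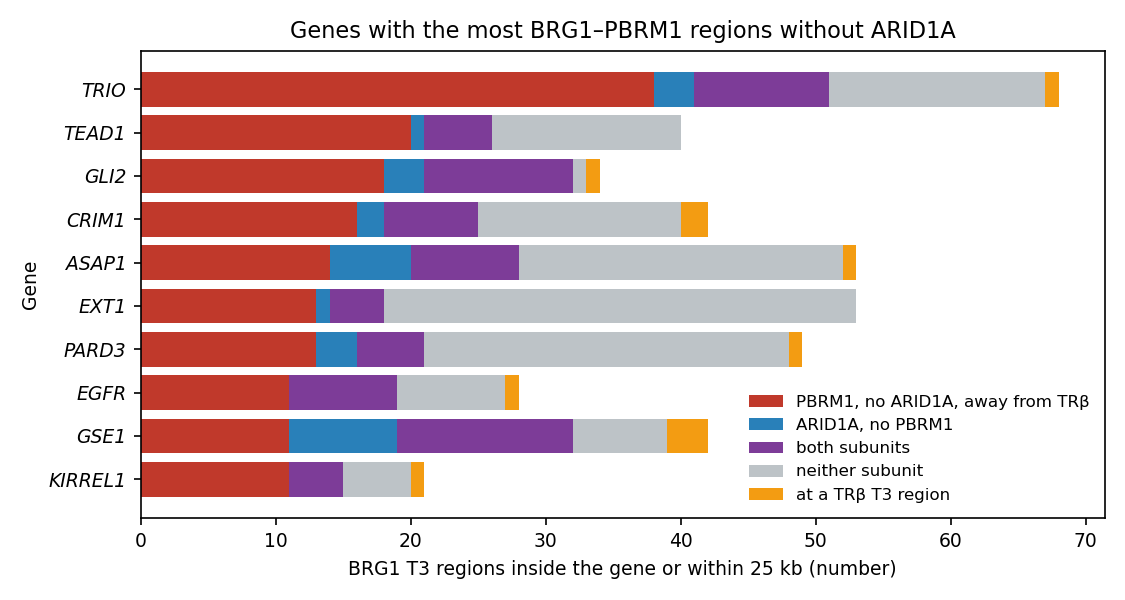
Number of BRG1 regions with T3 inside or within 25 kb of the 10 genes with the most PBRM1-only regions (red), split by class. TRIO held 38 of 68, TEAD1 20 of 40 and GLI2 18 of 34, while at EXT1, ASAP1 and PARD3 regions with neither subunit were the more numerous.

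In windows of 1 Mb the densest was chr5:14000001-15000000, which holds TRIO, with 41 PBRM1-only regions of 86 BRG1 regions. The window with MYC, chr8:127000001-128000000, had 26 of 68. Windows with TEAD1, GLI2 and MYH9 followed with 25, 20 and 20. By chromosome the share of PBRM1-only regions among BRG1 regions ran from 7.69% on chromosome 20 to 14% on chromosome 22.

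At the level of genes, 5353 of 19974 protein-coding genes (26.8%) had a PBRM1-only region within 25 kb of an end, while 78.8% had a BRG1 region of any class. The lists below were chosen with earlier results of these data known, and counts are set beside that share of 26.8% as a description only. What the density of BRG1 regions near these genes contributes to the counts was not tested. TGF-β pathway genes had a PBRM1-only region in 12 of 18. SMAD7, whose promoter is shown above, had a BRG1 value of 34.5, the latent TGF-β binding protein LTBP1 19.4, and the receptor TGFBR1 12.5. Actin and focal adhesion genes had one in 13 of 20, among them TPM1, a tropomyosin, at 24.7, ACTN1, an α-actinin, at 23.4, and MYH9, non-muscle myosin, at 19.6. Receptor kinases and RAS-MAPK genes had one in 15 of 25, with the hepatocyte growth factor receptor MET at 35.1 and IGF1R at 28.7. Cytosolic ribosomal protein genes had one in 13 of 20, with values of 17.2 for RPS14 and 16.7 for RPL10A. A counted region may lie outside the gene, as that of RPS14 did, 13818 bp from its nearer edge. It may also count for several genes, as that of RPL10A did for TEAD3. Every gene of the TGF-β, actin, receptor kinase and ribosomal lists had a BRG1 region of any class (100%), above the 78.8% of all genes. This was not particular to them: the AP-1, epithelial, cyclin and SWI/SNF lists were also at 100%. Among p53 targets, few of which had a PBRM1-only region, 93.75% had a BRG1 region.

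The YAP and TEAD pathway had 8 of 16 genes, with CCN1, a YAP target, carrying 5 PBRM1-only regions of 10 BRG1 regions and LATS2, a kinase that inhibits YAP, 6 of 19. Cyclins, CDKs and E2F genes had 10 of 19, including CDKN1B, which encodes the cell cycle inhibitor p27, at 20.03. Hypoxia and glycolysis genes also had 10 of 19, HIF1A at 30.5. Epithelial junction and keratin genes had 7 of 14, AP-1 factors 6 of 13, NF-κB and cytokine genes 6 of 16, WNT pathway genes 7 of 20 and mesenchymal genes 3 of 10. Below the share of all genes stood collagens and matrix with 5 of 20, integrins with 4 of 18, neuronal channels and synapse with 4 of 20, RUNX, SOX and ETS factors with 2 of 13, and p53 targets with 2 of 16. These counts depend on the window. Regions inside a gene but over 25 kb from its ends are not counted, such as 3 in RUNX2 and 2 in ETS1. Within 5 kb, collagens and neuronal genes had 4 of 20 each, above the 15.3% of all genes. Within 100 kb integrins had 10 of 18, RUNX, SOX and ETS factors 7 of 13 and p53 targets 8 of 16, above the 49.2% of all genes. Other lists turned the other way. WNT pathway genes had 9 of 20 and mesenchymal genes 4 of 10 within 100 kb, below the 49.2%, though above the 26.8% at 25 kb. The counts of 18 of the 23 lists changed at 5 kb and of 23 at 100 kb.

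Of the SWI/SNF genes, the PBAF-defining list had a PBRM1-only region at 1 of 4, PHF10, with a BRG1 value of 21.95; PBRM1, ARID2 and BRD7 had 0 of their 6, 4 and 2 BRG1 regions in this class. BAF-defining genes had one at 6 of 10, ARID1B with 2 of 9 and ARID1A with 1 of 14, and the shared subunits at 4 of 12, of which SMARCA2, the other ATPase, had 21.4; SMARCA4 had 0 of 5. T3-responsive genes had one within 25 kb at 6 of 12, and KLF9 had 0 of 3. The BRG1 value was 19.3 near BCL3 and 12.9 near ME1. Both regions lay outside the gene, 10053 bp and 16522 bp from its nearer edge. Within 5 kb the list had 2 of 12 (16.7%), close to the 15.3% of all genes.

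Thyroid genes had a PBRM1-only region in 7 of 17. PAX8 had 4 of 15 BRG1 regions in this class, FOXE1, a thyroid transcription factor, 3 of 9, and the TSH receptor gene TSHR had 1 of 8. The iodide transporter gene SLC26A4 had 2 of 2. The list of thyroid hormone receptors and their partners had one at 2 of 11 genes, below the 26.8% of all genes. This turned with the window: it was 2 of 11 within 5 kb, above the 15.3% of all genes. Within 100 kb it was 6 of 11, above the 49.2% of all genes. RXRA had 0 within 25 kb of its ends and 5 further inside the gene. THRA, which encodes thyroid hormone receptor α, had 5 of 10 BRG1 regions in this class. THRB, the gene of TRβ itself, had 0 of 5 within 25 kb of its ends.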

How the data were processed

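The data were lists of CUT&RUN regions, 1 for each of 8 groups with 2 libraries each. Per the submitters' processing notes CASAVA 1.7, Trim Galore, Bowtie2, MACS2 and hg38 were used, with no parameters. The authors deposited per region an interval, a signal value (the sum of 2 libraries), a scaled score of the IDR and its −log10, and the interval and signal of each library. Which column is which numbered replicate is not stated, 16 columns with a summit per library were not used, and read depth is not given in the sources used here. The labels do not say that replicates are separate cultures, so agreement may be technical.

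Overlap meant at least 1 bp. Shares have exact (Clopper-Pearson) 95% intervals, which cover counting error only. Fisher's exact tests used scipy, log2 odds ratios had 0.5 added to all 4 counts, and p was not written below 1e-300; overlap and test code was tested on simulated data. Gene positions and promoters came from RefSeq GRCh38.p14, with no genome sequence. The members and lists were chosen with earlier results of these data known, and the promoter, gene-start and ARID1A-distance descriptions after the values were seen. Names come from the closest protein-coding gene, up to 100 kb off: the 12 with the highest BRG1 and the 12 with the highest PBRM1 value, the 6 widest, the 5 highest in each vehicle state, the 10 genes and 5 windows with the most members, up to 4 genes of each list, and 15 genes always. A few of the genes named in this way are not reported here.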

Additional observations from a re-analysis of the deposited data

How the results depend on the processing

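No paired analysis was possible because each antibody and condition had 1 list. Of the log2 odds ratios, 2 reversed: for TRβ with vehicle, PBRM1-only over ARID1A-only regions, it was -0.43 (adjusted p = 0.258, Fisher's exact test) under reciprocal 50% overlap, and for BRG1 with vehicle 0.20 (adjusted p = 0.00299) with ARID1A and TRβ at least 1 kb away; the cause was not tested. The other 13 kept direction and side of the threshold under every alternative run (stricter IDR, reciprocal overlap, tolerance of 500 bp, lists of equal length, width strata, 1 library's intervals, other gene windows). Equal length cut only the BRG1 and ARID1A vehicle lists, so the comparisons for PBRM1 and TRβ with vehicle could not change under it. The number of PBRM1-only regions was 4011 to 6279, and 5826 to 5844 with 1 library's intervals. Membership moved more than the number: an IDR of at most 0.01 kept 2699 of the 5913 and reciprocal 50% overlap kept 2751. Both settings applied to the ARID1A and TRβ lists too, which loosened the exclusion. Their totals of 4454 and 5133 were therefore filled up by regions that overlapped ARID1A or TRβ under the main rule. Protein-coding genes near a PBRM1-only region numbered 3057 at 5 kb and 9826 at 100 kb.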

Other observations

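PBRM1-only regions overlapped 17 of 1558 RefSeq miRNA hairpins, ARID1A-only regions 16, regions with both subunits 83, those with neither 24 and those at TRβ 56; PBRM1-only regions were 10.6% of all BRG1 regions. The highest BRG1 value among them, 40.7, was over MIR30A at chr6:71402779-71406883; the others included MIR423, MIR137, MIR365A and MIR193A with 21.4, 17.4, 17.4 and 9.07. All 5 of these regions also met BRG1 with vehicle, and those of MIR137 and MIR365A met PBRM1 with vehicle. Their mature miRNAs are shown with the seed, bases 2 to 8, in capitals; no 2 of those shown share a seed. No miRNA level was measured, and the overlap of a region with a hairpin says nothing of its transcription.
hsa-miR-30a-5p: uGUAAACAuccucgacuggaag
hsa-miR-423-5p: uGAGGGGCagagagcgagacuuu
hsa-miR-137-3p: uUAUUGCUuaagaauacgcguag
hsa-miR-365a-3p: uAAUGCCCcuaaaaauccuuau
hsa-miR-193a-3p: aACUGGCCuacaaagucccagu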
